A study of Mus musculus with 58 samples.

Results

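The genes described here were those whose symbol begins with Nduf, the nuclear genes named for NADH:ubiquinone oxidoreductase, which is complex I of the mitochondrial respiratory chain. They were chosen by symbol, with a mean normalized count of 10 or more in both of the brain regions studied. The rule gave 42 genes of 31246 listed, and all 42 Nduf genes listed passed the minimum, as did 15642 genes of the whole list. RNA-sequencing had been performed on poly(A)+ RNA from entorhinal cortex (EC) and primary visual cortex (PVC) of male C57Bl/6 *APOE* targeted replacement mice, aged 14 to 15 months. In these mice human *APOE* stands in place of the mouse gene under the mouse promoter, so the controls carry a human allele too. Each region had 10 libraries from *APOE3/3* mice and 19 from *APOE3/4* mice, 58 libraries in all, with 29 animal numbers common to both regions. The study compared the genotypes, and it compared a region vulnerable to Alzheimer's disease with a resistant one. The values used here are the authors' mean normalized count per gene over the 29 libraries of a region, with both genotypes pooled. They hold no value of a single library, so no standard deviation, no test and no genotype comparison is given, and a fold stands in for a test. Depth per library was not analysed here.

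Complex I takes electrons from NADH, passes them along a chain of iron-sulfur clusters to ubiquinone and pumps protons across the inner mitochondrial membrane. It is shaped like an L, with a matrix arm that holds the redox chain and a membrane arm that holds the pumps. The nuclear core subunits carry the flavin and the clusters, the mitochondrial DNA encodes the core subunits of the membrane arm, and many accessory subunits surround both. Assembly factors help to build the complex and are not part of the finished enzyme. In neurons much of the ATP for ion pumping and synaptic transmission comes from this chain.

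By role, the 42 genes comprised 7 redox core subunits, 9 accessory subunits of the matrix arm, 9 of the proximal membrane arm, 10 of the distal membrane arm, the acyl carrier protein Ndufab1, 4 assembly factors, and Ndufa4 and Ndufa4l2. Ndufa4 was named as a complex I subunit but is now assigned to complex IV, and Ndufa4l2 is its hypoxia-responsive paralog. This leaves 36 complex I subunits. The genes were spread over 16 chromosomes of the NCBIM37 (mm9) annotation, with 5 on chromosome 17 and 2 on chromosome X.

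The promoters are shown first. RefSeq windows (GRCm38.p6) of 250 bases before and 50 bases after the start of the gene were matched to 37 of the 42 genes. The other 5 had none. The 37 genes had 39 windows, and a gene was counted once, with a match if any of its windows held the letters. In 5 of the 37 genes a window held the letters AAGATGGCG, the core recognised by YY1, a zinc finger factor known to act on nuclear genes of mitochondrial proteins. The 5 genes were Ndufa9, Ndufc1, Ndufs4, Ndufs6 and Ndufs7. The 30 bases round each match are given 5′ to 3′ on the strand of the gene, with the core in capitals. Each stretch was cut at a fixed distance before the core, so the capitals line up by construction.

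Ndufa9 (chr6:126849101-126849130, minus strand): gaggcattgtgggagAAGATGGCGgccgcc
Ndufc1 (chr3:51408919-51408948, minus strand): cggagcctgcggaacAAGATGGCGccgtcc
Ndufs4 (chr13:114388045-114388074, minus strand): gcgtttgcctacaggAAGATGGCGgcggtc
Ndufs6 (chr13:73328435-73328464, minus strand): tcaagggtcaccggcAAGATGGCGgcggtg
Ndufs7 (chr10:80249458-80249487, plus strand): ctgaaggccgaggccAAGATGGCGgcgctg

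Counted from 1 at the first base of the gene, the core began at base 23 in Ndufc1, 25 in Ndufs7, 30 in Ndufa9, 34 in Ndufs6 and 36 in Ndufs4. All 5 matches were on the strand of the gene. Searched on both strands, the core was in 13.5% of the Nduf genes and 1.64% of all 27025 genes with a window. It was in 3.08% of the 10515 such genes with 10 or more counts in both regions, here called expressed. Of the 324 expressed genes with the core, 246 held it on the strand of the gene. It began at bases 21 to 50 on that strand in 105 of the 324. That range holds the positions of all 5 Nduf genes given above and ends where the window ends, so it is no test of their place. The letters contain ATG, so the annotated start codons were also examined. In the coding transcripts of the NCBIM37 annotation the start codon lay inside AAGATGGCG in 8 of the 42 Nduf genes (19.0%) and in 322 of 13897 expressed genes (2.32%). The 8 included the 5 genes above, Ndufa2 and Ndufa6. In these genes a match is therefore also the beginning of the reading frame, which fixes its strand, and binding of the factor was not measured. Its distance from the start depends on the annotation. In coding transcripts of NCBIM37 the core began at base 56 in Ndufc1 and base 4 in Ndufs6, outside bases 21 to 50. Among 46 genes chosen by symbol for complexes II to V, 3 had the same letters at the start codon, namely Atp5j2, Uqcrc1 and Atp5sl, and the last is not a subunit of the ATP synthase.

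The letters GCGCANGCG, the core of NRF1, a factor known to act on nuclear genes of the respiratory chain, were in 9 of the 37 genes (24.3%). The share was 13.7% among the expressed genes and 7.03% among all genes with a window. The 120 bases before the start are shown for 4 of the 9 genes, with the NRF1 core in capitals on either strand. Ndufa8 had a match that ended at the base before the start, Ndufb4 had the most matches, Ndufs6 also held the YY1 core and Ndufaf4 is an assembly factor. The last sequence is that of Ndufaf2, the only gene of the 42 past the fold limit between the regions, which held neither core. Its capitals mark CCAAT and GGGCGG, the Sp1 box, on either strand.

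Ndufa8 (chr2:36049339-36049458, minus strand): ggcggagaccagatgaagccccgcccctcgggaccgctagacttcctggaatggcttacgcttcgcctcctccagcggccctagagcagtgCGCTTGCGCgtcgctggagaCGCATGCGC
Ndufb4 (chr16:37654369-37654488, minus strand): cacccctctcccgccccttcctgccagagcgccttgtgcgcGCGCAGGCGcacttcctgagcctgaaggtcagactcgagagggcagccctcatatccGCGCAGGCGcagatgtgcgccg
Ndufs6 (chr13:73328483-73328602, minus strand): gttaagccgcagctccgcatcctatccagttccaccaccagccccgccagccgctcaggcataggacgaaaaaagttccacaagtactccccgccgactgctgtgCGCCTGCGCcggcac
Ndufaf4 (chr4:24897963-24898082, plus strand): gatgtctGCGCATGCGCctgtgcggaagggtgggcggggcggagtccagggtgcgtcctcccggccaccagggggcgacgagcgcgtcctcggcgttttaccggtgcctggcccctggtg
Ndufaf2 (chr13:108158626-108158745, minus strand): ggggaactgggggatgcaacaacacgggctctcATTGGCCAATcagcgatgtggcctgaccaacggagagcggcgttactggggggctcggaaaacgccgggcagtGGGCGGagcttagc

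In Ndufa8 the other NRF1 core lay from -29 to -21. In Ndufb10, not shown, the core spanned the start, from -2 to 7. Ndufb4 had another match at -191 to -183, outside the stretch shown. Of the other motifs searched on both strands, the ETS core CCGGAAG was in 13.5% of the Nduf genes and 17.3% of the expressed ones, and the Sp1 box was in 51.4% and 66.9%. The ERR half-site AAGGTCA was in 8.11% and 4.09%, CCAAT in 35.1% and 42.5%, the CRE half-site TGACGTC in 10.8% and 5.96%, and TATAAA in 10.8% and 9.13%. In percentage points the NRF1 and YY1 cores stood furthest above the expressed genes. Taken as a ratio of the shares, the CRE and ERR half-sites stood at least as far above them as the NRF1 core. Those 2 motifs were in only 4 and 3 Nduf genes. For GC content the highest value among a gene's windows was taken. Its median was 59.3% for the Nduf genes, 62.0% for the expressed genes and 53.3% for all genes with a window. A match is a description of letters and not a binding site. The palindromic forms of the NRF1 core and the CRE half-site match on both strands and were counted once per gene.

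**Figure D1:**
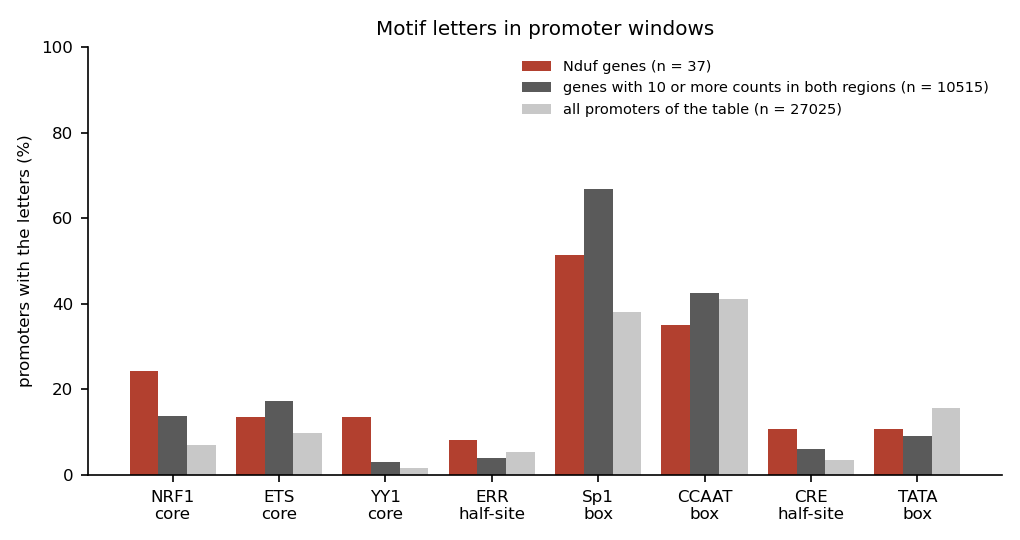
The bars give the share of genes (%) with each of 8 motifs on either strand of a promoter window. They cover the 37 Nduf genes with a window, the 10515 expressed genes and all 27025 genes. The bar of the Nduf genes stands above both others for the NRF1 core (24.3%), the YY1 core (13.5%), the CRE half-site (10.8%) and the ERR half-site (8.11%), and below the expressed genes for the ETS core (13.5%), the Sp1 box (51.4%) and CCAAT (35.1%).

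Levels were compared between genes as CPM per kilobase. CPM is the mean normalized count scaled so that both tables have one fixed sum, and the length is that of the union of the gene's exons. The median over the 42 genes was 34.7 in the EC against 38.7 in the PVC, and the median over 15098 genes with 10 or more counts in both regions and a length was 6.24 and 6.19. The median Nduf gene stood at the 67.5th percentile of the EC table and the 68.4th of the PVC table. Together the 42 genes made up 2296 CPM in the EC against 2446 in the PVC. The tables were normalized separately, and the CPM scale was set here from each table's own sum.

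The 7 nuclear redox core subunits had a median of 38.8 CPM per kilobase in the EC against 42.1 in the PVC. Among the 6 given by name, the highest level was 1.54 times the lowest in each region. Ndufv1, the subunit that binds NADH and the flavin, was at 47.9 in the EC and 52.3 in the PVC. Ndufs8, which carries a pair of clusters towards the end of the chain, was at 46.5 and 48.8. By exon union these 2 stood above the others of the 6. Ndufv2, which holds a cluster beside the flavin, was at 38.8 and 42.1 CPM per kilobase. Ndufs3 was at 33.7 and 37.96, Ndufs1, the largest subunit, at 33.4 and 35.7, and Ndufs7, which carries the last cluster, at 31.2 and 33.96. The order of the 6 by exon union was the same in both regions, but it depended on the gene model. With the length of the coding transcript Ndufs8 was lowest in the EC, at 46.5, and Ndufs7 was at 70.7 beside Ndufv1 at 72.7. With no spread between libraries it cannot be said which neighbours in that order differ.

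The deposited mean normalized counts of these 6 core subunits, before any scaling, ran from 2213 (Ndufs8) to 6226 (Ndufs1) in the EC and from 1272 to 3646 in the PVC. These counts are far above the minimum of 10, and the 6 ranked from the 67.4th (Ndufs8) to the 88.2nd percentile (Ndufs1) of the EC table.

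Among the accessory subunits, the matrix arm had a median of 33.1 CPM per kilobase in the EC, the proximal membrane arm 51.9 and the distal membrane arm 40.0. With the length of the coding transcript these medians were 42.3, 61.3 and 65.2, so the membrane arms changed order, and that of the redox core was 70.1. Ndufb9, of the distal membrane arm, had the second highest level of all 42 genes, at 162 in the EC and 173 in the PVC. Ndufa6, a matrix arm subunit of the LYR family that binds the acyl carrier protein, followed at 81.1 and 90.5. Ndufa2, a matrix arm subunit with a thioredoxin-like fold, was at 80.5 and 82.4, and Ndufa8 at 69.8 and 72.2. At the lower end stood Ndufb2, at 5.84 and 5.83. The union of annotated exons is 5628 bases for Ndufb2, while its coding transcript has 455 bases. With the length of the coding transcript, a scale added after the data were seen, Ndufb2 was at 72.3 in the EC and moved from rank 41 to rank 11. Ndufab1, which carries the growing acyl chain in mitochondrial fatty acid synthesis and also sits in complex I, moved likewise, from 7.53 to 36.6 in the EC. The exon union was over 2 times as long as the coding transcript in 8 of the 42 genes, also in Ndufb7, Ndufb8, Ndufa7, Ndufa3, Ndufs7 and Ndufs3. Ndufb8 moved from 21.5 to 102 in the EC and Ndufb7 from 9.46 to 68.7. For these 8 genes the level per kilobase depends on the gene model.

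The assembly factors were the low group. Ndufaf3 was at 20.7 CPM per kilobase in the EC and 21.2 in the PVC. Ndufaf2, a chaperone of a late step, was at 11.7 and 15.3. Ndufaf1, which acts on the membrane arm, was at 8.75 and 8.64, and Ndufaf4, which works with Ndufaf3, at 6.22 and 7.06. The median of the redox core was 3.79 times that of the assembly factors in the EC and 3.52 times in the PVC. With the length of the coding transcript these ratios were 6.27 and 5.84.

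Ndufa4 had the highest level of the 42 genes, at 272 CPM per kilobase in the EC against 302 in the PVC, from mean normalized counts of 6598 and 4025. Its paralog Ndufa4l2 had the lowest, at 1.70 and 1.73, from counts of 80.6 and 44.9. The paralogs therefore stood 160-fold apart in the EC and 175-fold apart in the PVC. Ndufa4l2, at the 12.8th percentile in the EC, was the only one of the 42 genes with fewer than 100 counts in either region.

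**Figure D2:**
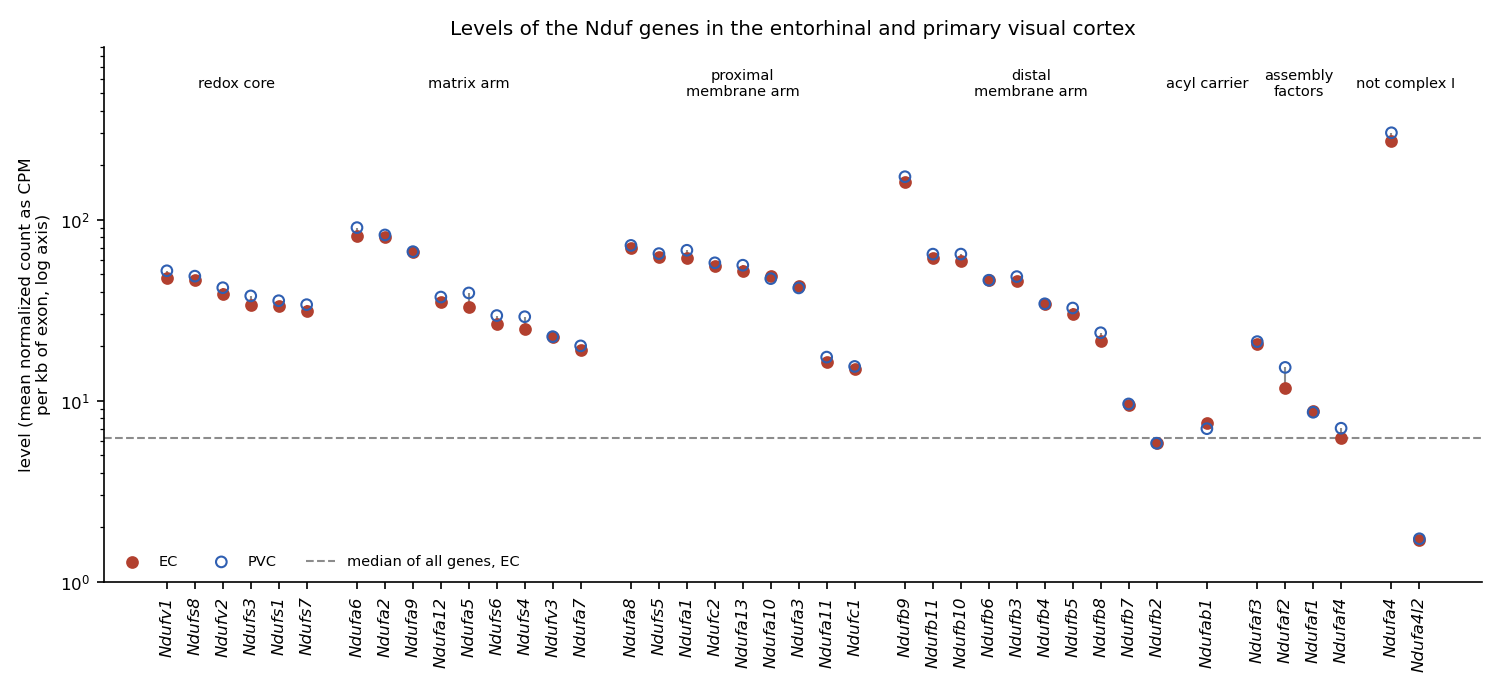
The 41 genes drawn are shown with their level in the EC (filled) and the PVC (open), as CPM per kilobase of exon on a log axis, grouped by role. The 6 redox core subunits drawn lie between 31.2 and 47.9 in the EC, the 4 assembly factors between 6.22 and 20.7, and the dashed line is the median of all genes in the EC, 6.24. Each point is the authors' mean over 29 libraries and has no error bar.

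For the comparison of the regions, the log2 ratio of the EC over the PVC mean normalized count was taken relative to the median gene. That median was taken over the 15642 genes with 10 or more counts in both. The deposited values of the median gene were 1.86-fold higher in the EC table, and this factor was removed. By construction 50% of all genes then lie below 0. A gene was called where its log2 ratio was past 0.32 in either direction.

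Of the 42 Nduf genes, 39 lay below the median gene in the EC relative to the PVC, and 3 lay above it. The median log2 ratio was -0.11, with the middle of the distribution between -0.17 and -0.05. For all genes the corresponding range was -0.14 to 0.16, and of the 8023 genes with 1000 or more counts in the EC 53.9% lay below 0. The spread of the Nduf genes (SD of the log2 ratio over genes 0.09) was smaller than that of all genes (0.46). It was also smaller than that of the genes with 1000 or more counts in the EC (0.33). None was higher in the EC past that limit, where 14.4% of all genes were, and 1 was lower in the EC past it, where 11.1% of all genes were. Of the 8023 genes with 1000 or more counts in the EC, 687 (8.56%) were higher and 642 lower past the limit. The ranks, which need no common scale, gave the same count, with 39 of 42 genes at a higher percentile in the PVC table than in the EC table, against 8004 of all 15642 genes.

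Ndufaf2 (ENSMUSG00000068184, chr13:108842784-108948819, NCBIM37, minus strand) was the gene past the limit. Its mean normalized count in the EC was 392, against 281 in the PVC, which gave a log2 ratio of -0.41, or 1.33-fold higher in the PVC. It stood at the 31.3rd percentile in the EC and the 36.1st in the PVC. Its start lies 106 bases from that of Ercc8, a DNA repair gene on the other strand, and Ercc8 had a log2 ratio of -0.23. The next lowest ratio was that of Ndufa5, a matrix arm subunit, at -0.28 from counts of 1687 and 1101. Ndufs4, an accessory subunit added late in assembly whose loss causes a Leigh-like disease in mice, was at -0.26 from counts of 1880 and 1209. These 2 genes lay just inside the limit.

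Ndufaf4 was at -0.21 and Ndufs3 at -0.20. The other assembly factors lay closer to the median gene, Ndufaf3 at -0.06 and Ndufaf1 at -0.01. At the other end, Ndufab1 had the highest ratio, 0.08, from counts of 2561 and 1306. Ndufa10, a proximal membrane arm subunit of the nucleoside kinase fold, was at 0.02 and Ndufa3 at 0.01, and these 3 were the only genes above 0. Ndufb2 was at -0.02, and with the tables scaled to their sums Ndufaf1 and Ndufb2 lay above 0 too.

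All 7 redox core subunits lay below 0, between -0.20 (Ndufs3) and -0.09 (Ndufs8), with a median of -0.15. Ndufv1 and Ndufs7 were at -0.15, Ndufv2 at -0.14 and Ndufs1 at -0.12. The spread among these 7 was an SD of 0.03 on the log2 scale. The accessory subunits were below 0 in 9 of 9 genes of the matrix arm (median -0.11), 7 of 9 of the proximal membrane arm (median -0.08) and 10 of 10 of the distal membrane arm (median -0.10). Ndufa4 was at -0.18 and Ndufa4l2 at -0.05, so the paralogs lay on the same side of the median gene in spite of their levels. Apart from Ndufab1, the medians of the roles lay between -0.15 and -0.08.

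**Figure D3:**
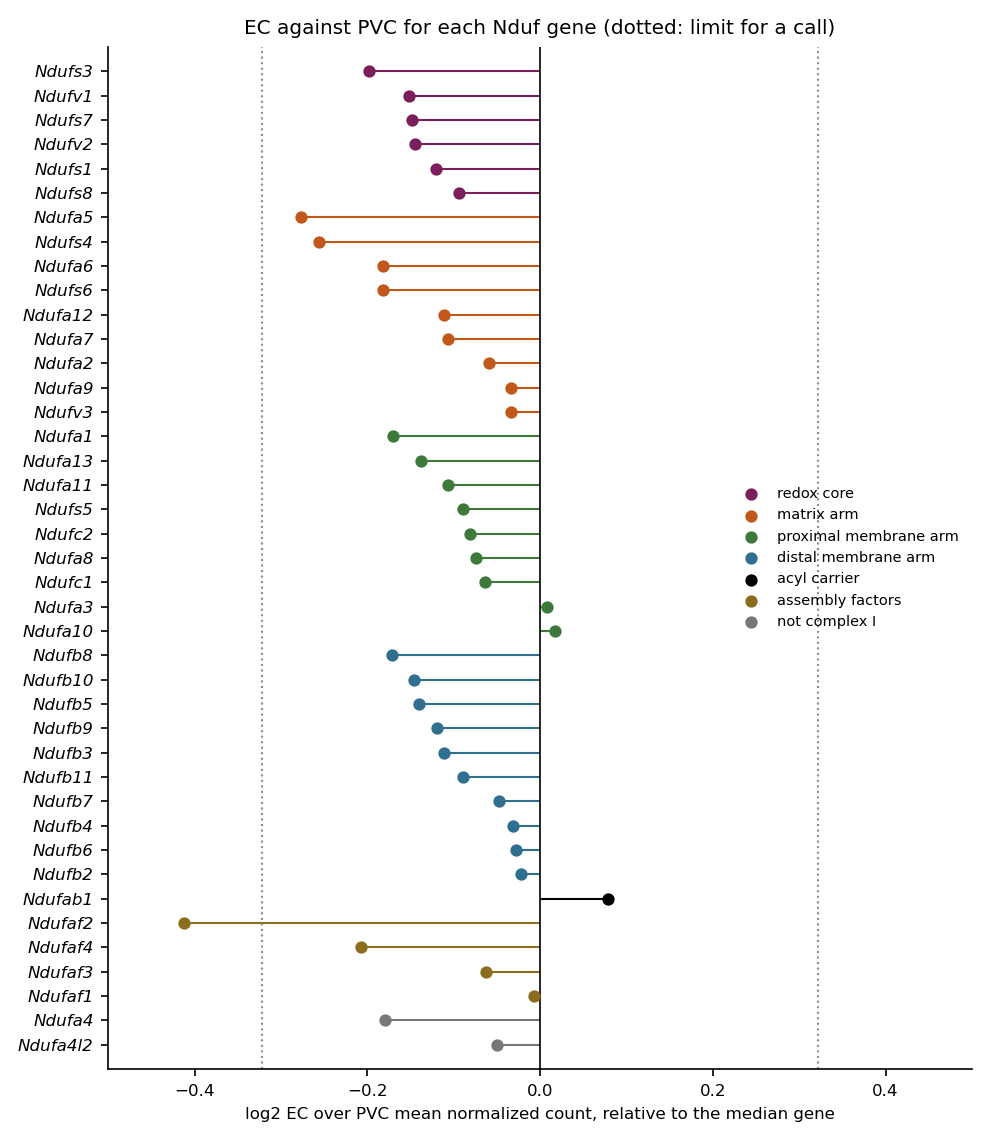
For each of 41 genes the log2 ratio of the EC over the PVC mean normalized count, relative to the median gene, is drawn from 0, with colours for the roles and dotted lines at the limit of 0.32 in either direction. Points to the left are lower in the EC. Ndufaf2 at -0.41 is the only one past a dotted line, and Ndufab1, Ndufa10 and Ndufa3 are the 3 to the right of 0.

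**Figure D4:**
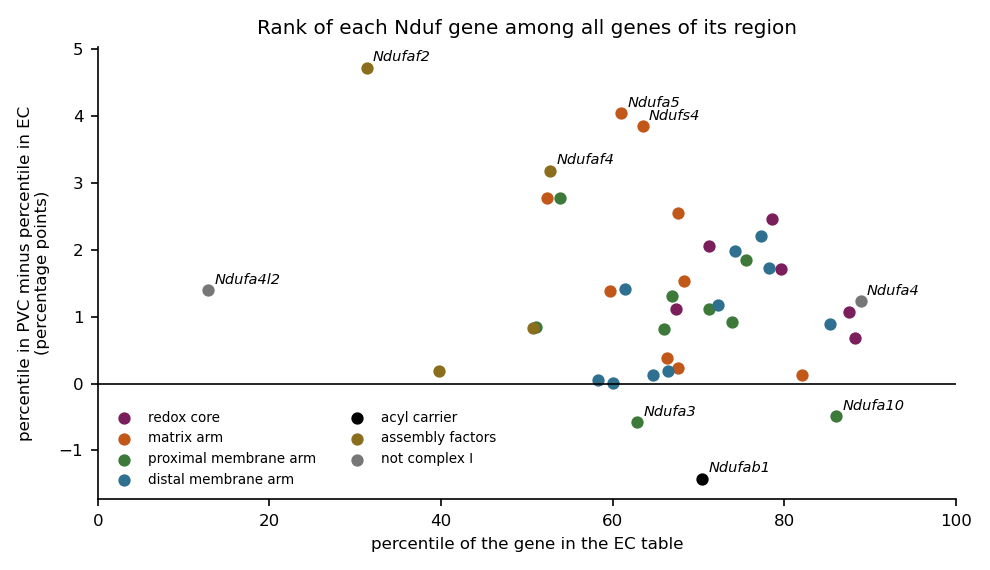
The percentile of 41 Nduf genes in the PVC table minus that in the EC table (percentage points) is plotted against its percentile in the EC table, both among the 15642 genes with 10 or more counts in both. Of the 41 points, 38 lie above 0 and Ndufaf2, Ndufa5 and Ndufs4 are highest.

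Across the 42 genes the log2 mean normalized counts of the EC and the PVC had a Pearson r of 0.997 and a Spearman rho of 0.995, and across 15098 genes these were 0.984 and 0.987. Genes are not independent replicates, and the same mice gave both regions. The ratio had a Spearman rho of 0.08 with exon length and -0.15 with the EC count over the 42 genes, against 0.04 and -0.08 over all genes.

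The other nuclear genes of the respiratory chain were chosen by symbol. Of 46 such genes of complexes II to V with 10 or more counts in both, 41 lay below the median gene, with a median log2 ratio of -0.10. Complex II, the succinate dehydrogenase, had 4 of 4 genes below 0 (median -0.07). Complex III, which reduces cytochrome c, had 8 of 9 (median -0.07), and complex IV, the cytochrome c oxidase, had 13 of 16 (median -0.13). Complex V, the ATP synthase, had 16 of 17 (median -0.10). The symbols also brought in Cox4nb, a subunit of a membrane complex of the endoplasmic reticulum, and Atp5sl, which is not a subunit of complex V. Without these 2, 12 of the 15 genes chosen by symbol for complex IV, 15 of 16 for complex V and 39 of 44 in all lay below 0. The ratios reached higher than those of the Nduf genes, with Cox5b at 0.15 and Atp5d at 0.12, and by ranks 37 of the 46 were higher in the PVC. Past the limit were 2 of the 46, Cox6b2 at 0.68 and Cox7a1 at -0.40, both with fewer than 100 counts. The difference between the Nduf genes and these complexes was not tested.

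Nuclear genes of complex I assembly with other names were nearer to the median gene. Of the 7 listed, which included Acad9, Ecsit and Foxred1, 4 lay below 0, with a median of -0.02. Of 8 other mitochondrial genes only Vdac2 (-0.16) and Tfam (-0.13) lay below 0, and the median was 0.04. Hspd1, the mitochondrial chaperonin, was at 0.15, the import receptor Tomm20 at 0.14 and citrate synthase, Cs, at 0.06. These lists are short and were described without a test. The 7 mitochondrially encoded subunits of complex I, mt-Nd1 to mt-Nd6 and mt-Nd4l, were listed at 0 in both regions, as were all 37 genes with the prefix mt-. Thus only the nuclear subunits are described here.

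**Figure D5:**
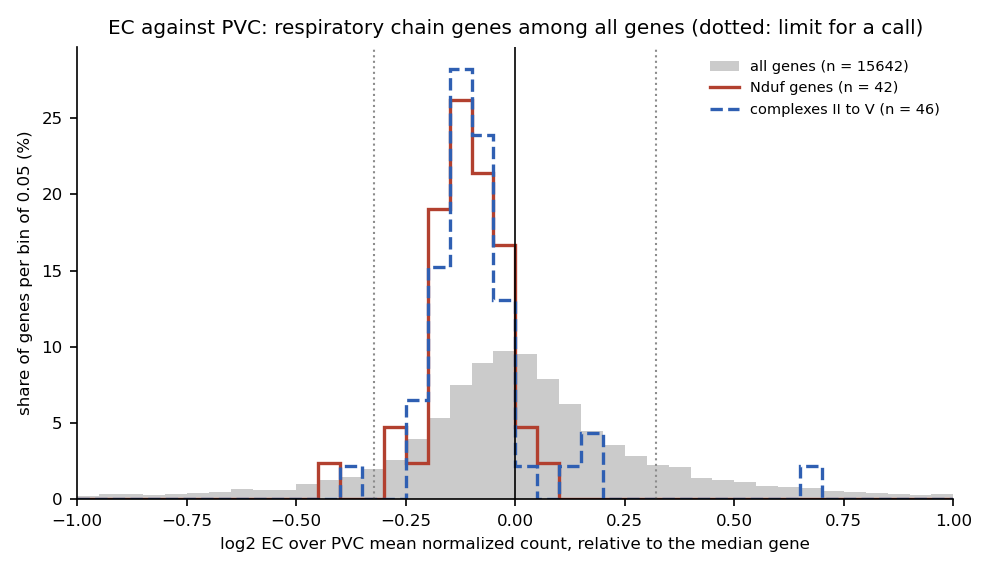
The share of genes (%) per bin of 0.05 is plotted against the log2 ratio of the EC over the PVC, relative to the median gene, for all 15642 genes, the 42 Nduf genes and 46 genes of complexes II to V. Both respiratory chain groups are narrower than all genes and have their median near -0.1, at -0.11 and -0.10. The 4.78% of all genes outside -1 to 1 are not drawn.

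Cell type markers differed between the regions. Fewer cells of a type and less RNA per cell cannot be told apart in tissue. The 4 oligodendrocyte markers were all lower in the EC past the limit, from -1.37 (Mbp) to -1.63 (Mobp), and summed to 809 CPM in the EC and 2088 in the PVC. Of the 4 neuronal markers listed, Snap25 was at -0.55, Gad1 at -0.32 and Syt1 at -0.24, while Slc17a7, the vesicular glutamate transporter of cortical excitatory neurons, was at 0.14. The neuronal markers had a median percentile of 99.9 in both tables. Their sum was 6022 CPM in the EC and 7223 in the PVC. Astrocyte markers ranged from -0.35 (Aldh1l1) to 0.62 (Gfap), and their sum was 4076 and 3905. The 3 microglial markers lay between 0.06 and 0.15 and the 3 endothelial markers between -0.01 and 0.04. The 5 pericyte markers ran from -0.37 (Kcnj8) to 0.58 (Cspg4), with the next highest, Pdgfrb, at 0.11. Of the choroid plexus markers with 10 or more counts in both, Ttr was at -2.18 and Kl at 0.02. Of those of the hippocampus and dentate gyrus, C1ql2 was at 1.79 and Prox1 at -0.25. The oligodendrocyte markers, 3 of the 4 neuronal, 3 of the 5 pericyte and 2 of the 4 astrocyte markers lay on the same side of 0 as 39 of the 42 Nduf genes. Slc17a7, the 3 microglial markers and 2 of the 3 endothelial markers lay on the other side. The part of any cell type in the Nduf ratios was not tested.

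Some Nduf counts could hold reads of other loci, or could lack reads that match several places. The study's methods do not state how such reads were counted. Of all 149-base stretches of the coding transcript, the length of the reads, 94.4% were found elsewhere in the genome with at most 2 differences for Ndufs5, 59.5% for Ndufs3, 39.9% for Ndufb4, 38.5% for Ndufab1, 29.9% for Ndufa12 and 18.6% for Ndufb11. Ndufc1 (3.54%) and Ndufs6 (0.476%) had few, and the other 34 genes had none. Exon bases were shared with another listed gene in 10 of the 42, of which 9 share with a gene on the other strand. The share was over 10% for Ndufb6 (39%, with 2010003O02Rik), Ndufa13 (30.2%, with Tssk6) and Ndufb11 (12.9%, with Rbm10). The library kit does not mark strand, so reads of such a pair cannot be told apart. Ndufb8 has 2 gene IDs in the annotation. Ndufaf2, Ndufa5 and Ndufs4 had none of these limits, as had 26 of the 42 genes. Without the other 16, the median log2 ratio was -0.12, 2 genes lay above 0 and Ndufaf2 was still past the limit.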

How the data were processed

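RNA-sequencing libraries were 149 base single-end reads of poly(A)+ RNA (TruSeq kit). Per the labels and the study's methods, the authors aligned them with TopHat 2.0.6 and Bowtie 2.0.2.0 to mm9, counted reads per gene with HT-SEQ and an NCBIM37 annotation, and normalized each region separately with DESeq2 1.10.1. The 58 libraries were grouped by the region and genotype in their labels. Of the 2 tables that the authors deposited, only the mean normalized count was used, a signal that is the mean over 29 libraries of counts divided by size factors. The 5 other columns per table hold the authors' genotype comparison (log2 fold change, its standard error, statistic, p-value, adjusted p-value) and were not used. Such means have no error, depth per library was not analysed, and no test was made.

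Levels are CPM (counts scaled to one fixed sum per table) per kilobase of exon (NCBIM37 annotation). The log2 EC over PVC ratio was centred on the median gene with 10 or more counts in both tables, and called past 0.32 in either direction. The calculation of this ratio was also tried, in separate code, on simulated means with known ratios. Sequence shared with other loci was searched with BLAST 2.17.0. Scripts ran in Python 3.11.15 with pandas 2.3.3, numpy 2.4.6 and scipy 1.17.1, and matplotlib 3.10.9 drew the figures. One gene is not reported here by name and is not drawn, but it is kept in counts and medians. Named with values are the other redox core subunits, the assembly factors, Ndufa4, Ndufa4l2, the 5 highest and 5 lowest genes by level and by ratio, and genes past that limit. The members, lists and rules were chosen with earlier results of these data known. The motifs, the start codon search, the shared sequence and the coding transcript length were chosen after the data were seen. Alternatives were other scales, folds, minimum counts, lengths and a pseudocount of 1.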

Additional observations from a re-analysis of the deposited data

How the results depend on the processing

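No paired analysis was possible because only the authors' means over all libraries of a region were used, and no replicate could be left out for the same reason. The median log2 ratio of the Nduf genes stayed between -0.12 and -0.08 under all alternatives tried. Of 32 alternatives to the main results, 25 gave the same result and 7 gave another value. Counts and ratios of levels could not be reversed by the rule used. Only the median log2 ratio could be, and it kept its sign. Here the same result means a median log2 ratio within 0.1, or a count or ratio of levels within 1.5-fold, of the main one. The 0.1 is nearly as large as the median log2 ratio itself (-0.11), so this tally is a loose one. The alternative without a minimum count could not differ, as all 42 genes pass the minimum. Scaling by the sum of each table gave 5 genes higher in the EC (3 with the median gene). A limit of 1.1-fold gave 17 of the 42 genes past it and one of 1.5-fold gave 0, against 1 at the limit used. Over all genes the quartiles of the log2 ratio, -0.14 and 0.16, both lay past 1.1-fold. Most genes were therefore past that limit, and the 17 are not a sign of a difference particular to the Nduf genes. With the coding transcript length the redox core was 6.27 times the assembly factors in the EC and 5.84 times in the PVC (3.79 and 3.52 with the exon union). Without division by length the spread of the 6 core subunits given by name was 2.81-fold in the EC and 2.87-fold in the PVC (1.54-fold in both with it). A pseudocount of 1 changed no ratio by more than 0.01. A difference between the regions smaller than the spread between libraries cannot be recognised from these means.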
